A study of Caenorhabditis elegans with 3 samples.

Results

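The regulators of cell cycle entry described here are 9 genes of Caenorhabditis elegans, listed by name for their known roles. They are lin-35, efl-1, dpl-1, cyd-1, cdk-4, cye-1, cdk-2, cki-1 and cdk-1, out of 19973 nuclear protein-coding genes. All peaks whose summit lay from 3000 bp upstream of the first annotated 5′ end to the 3′ end of each gene were taken from 5 deposited peak lists. These stretches are called gene windows. They held 3 of 589 optimal peaks, 32 of 30000 pooled peaks, 35 of 26338 peaks in replicate 1, 32 of 29455 in replicate 3 and 37 of 30000 in replicate 4.

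Chromatin was precipitated with an antibody against GFP from whole mixed-stage embryos, collected by bleaching adults, with an age given as 4 hours. All embryos came from strain OP651, which carries the unc-119 allele tm4063 and the transgene wgIs651, an insertion of bed-3::TY1::EGFP::3xFLAG with a rescuing unc-119(+) copy. BED-3 is a BED-type zinc finger protein. The series has 1 group with 3 biological replicates, numbered 1, 3 and 4, so no contrast between conditions was possible. The embryos were not separated by cell type or by cell cycle phase. Chromatin from embryos without the transgene was not analysed here, so a peak is a call of the authors' caller and is not shown to be BED-3 binding.

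Entry into the cell cycle is governed by a chain of conserved proteins. D-type cyclin with CDK4 and cyclin E with CDK2 inactivate the retinoblastoma protein, which otherwise holds E2F and DP transcription factors in a repressive state at S-phase genes, and inhibitors of the CIP/KIP family block the kinases. In the worm these parts are encoded by cyd-1 and cdk-4, cye-1 and cdk-2, lin-35, efl-1 and dpl-1, and cki-1, whereas cdk-1 encodes the mitotic kinase. Early embryonic cells divide rapidly, and many lineages leave the cycle later in embryogenesis.

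Strong, recurrent peaks were found at 2 of the 9 genes. The peak at lin-35 lay in the stretch between its 5′ end and that of a divergent neighbour, and the peak at cye-1 lay inside the gene beside a tRNA gene. The other 7 genes held no optimal peak, and among them the highest pooled rank was that of cki-1, at 1147. Rank 1 is the peak with the highest deposited signal of its list. For comparison, 3.95% of nuclear coding genes held an optimal summit in the same kind of window (788 genes). With so few members, listed with earlier results of these data known, 2 of 9 was described and not tested. Every one of the 9 windows held at least 1 pooled peak, as did 62.9% of all coding windows.

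**Figure D1:**
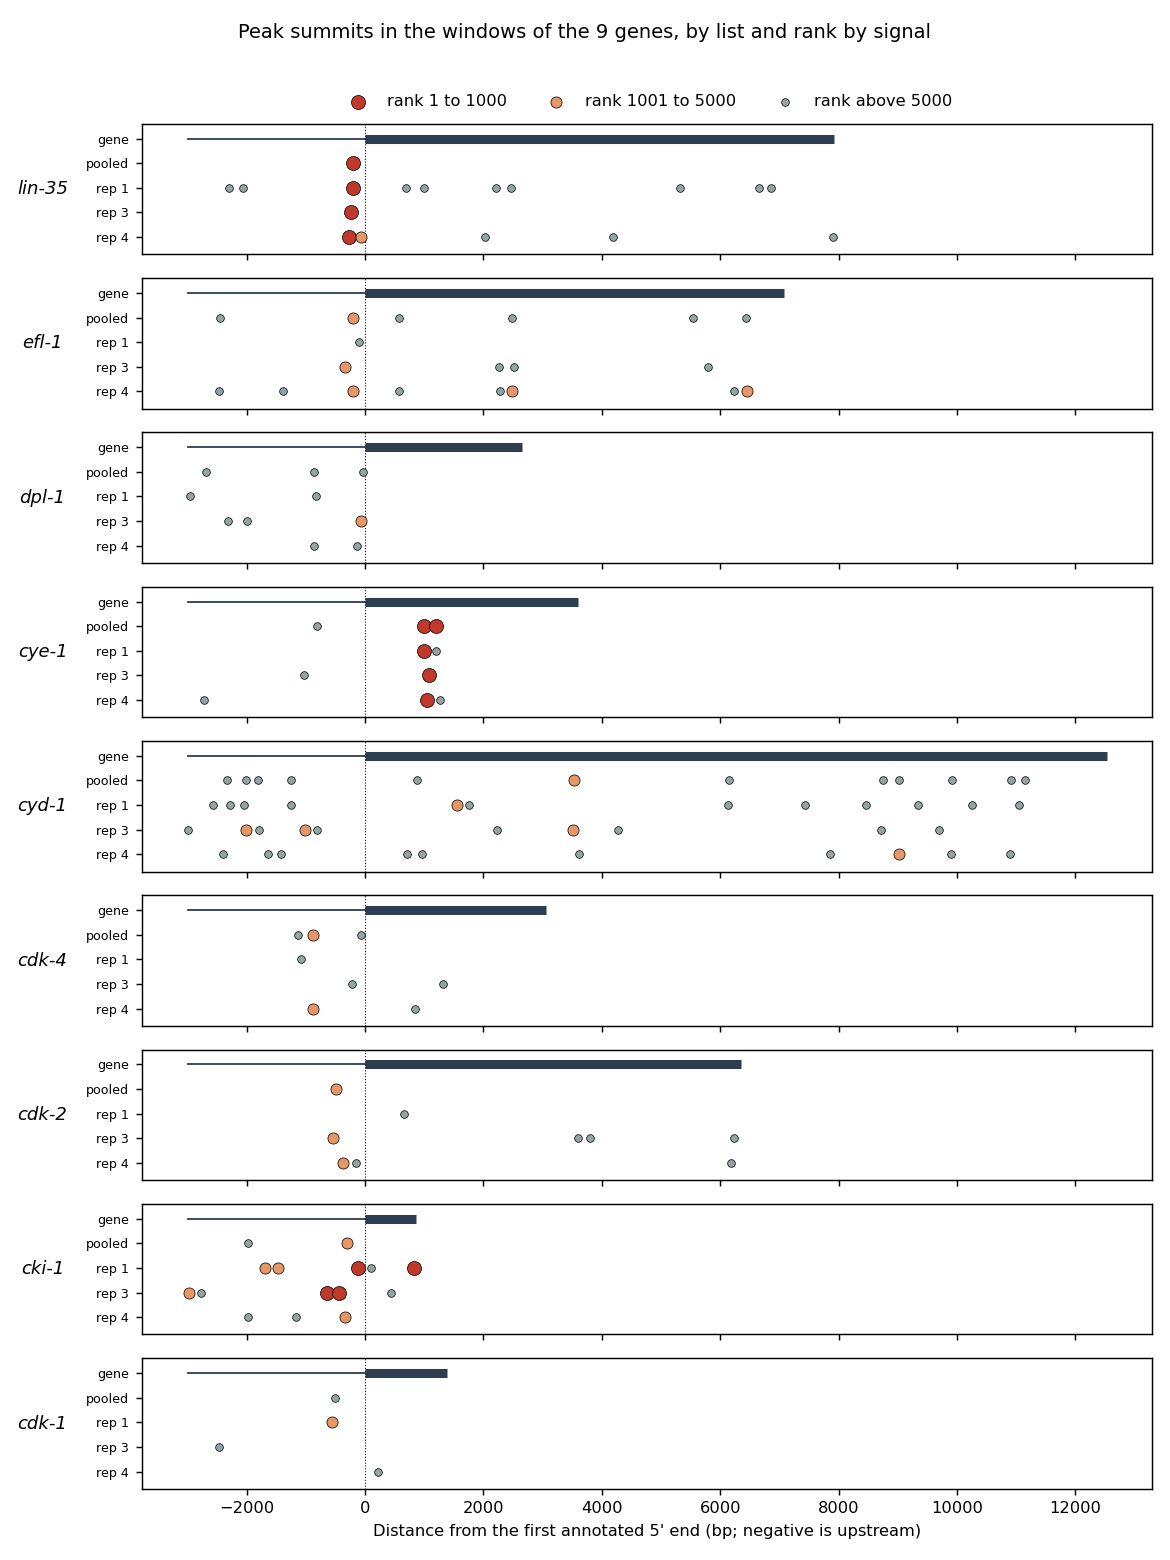
Each panel shows 1 gene, with the distance of peak summits from its first annotated 5′ end in bp on the x axis, the gene body as a thick bar and 1 row of points for the pooled list and for each replicate. Point size and colour give the rank class by signal in that list (up to 1000, up to 5000, above 5000). Large points stand one above the other in every list at lin-35 and at cye-1, whereas those at cki-1 are scattered over the upstream region and the gene.

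The lin-35 gene (WBGene00003020) encodes the only retinoblastoma-family protein of the worm and lies on chromosome I from 5807709 to 5815637. Its optimal peak covered positions 5807279 to 5807734, with the summit at 5807507, 202 bp upstream of the 5′ end. The deposited signal was 331 in the pooled list, 92.5 in replicate 1, 84.9 in replicate 3 and 161 in replicate 4. Signals are not comparable between lists, and the ranks were 129 of the pooled list, 119 in replicate 1, 105 in replicate 3 and 142 in replicate 4. In each replicate the peak was thus within the upper 0.473% of the list. The replicate summits lay 208, 245 and 277 bp upstream in replicates 1, 3 and 4, a span of 69 bp, and the 3 called intervals shared 365 bp.

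The same stretch is the upstream region of vps-51, which encodes a subunit of a vesicle tethering complex and is transcribed away from lin-35. The 5′ ends of these genes are 418 bp apart. The optimal summit lay 216 bp from that of vps-51. By nearest 5′ end the summit of replicate 1 went to lin-35 (208 bp), but those of replicate 3 (173 bp) and replicate 4 (141 bp) went to vps-51. The peak therefore cannot be assigned to either gene by position. No tRNA, snoRNA, snRNA or rRNA gene lay within 200 bp of the summit. Every 36-base word of the interval (421 words) occurred once in the nuclear genome.

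The rest of the lin-35 window showed no peak that recurred. The pooled list had no further summit there. Replicate 1 had 9 other summits, ranked from 6515 to 22055, of which 7 lay in the gene. Replicate 4 had 4 others, the highest 77 bp upstream at rank 1286, and replicate 3 had none. None of these other summits had a match within 100 bp in another replicate.

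EFL-1 is an E2F transcription factor and DPL-1 its DP partner, and both act with LIN-35 in the worm. The efl-1 gene (WBGene00001161) lies on chromosome V from 16958590 to 16965675 on the minus strand. Its highest pooled peak (chromosome V, 16965645 to 16966100) had a signal of 76 and rank 1905, with the summit 198 bp upstream of the 5′ end. The window of the divergent gene fbxa-90 also held this summit, 941 bp upstream of the fbxa-90 5′ end. Each replicate had a peak in the region upstream of efl-1. The summit lay 109 bp upstream in replicate 1 (signal 15.9, rank 13483), 339 bp upstream in replicate 3 (signal 22.6, rank 4012) and 197 bp upstream in replicate 4 (signal 38.3, rank 3989). The summits span 230 bp, so that the peak was matched within 100 bp in replicates 1 and 4 but not in replicate 3, whose nearest summit was 141 bp away. The 3 intervals shared 217 bp. Further pooled summits lay in introns, at 573, 2484, 5534 and 6438 bp from the 5′ end, with ranks between 7468 and 23016. The intronic summit at 2484 bp was matched in replicate 3 (rank 9540) and replicate 4 (rank 4830) but not in replicate 1.

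The dpl-1 gene (WBGene00001061) lies on chromosome II from 9169910 to 9172565, within the span of T23G7.2 on the other strand. Its highest pooled peak (chromosome II, 9169648 to 9170103) had a signal of 47.1 and rank 9237, with the summit 34 bp upstream. Replicate 3 had a summit 74 bp upstream (signal 23.4, rank 3443) and replicate 4 one at 130 bp (signal 18.7, rank 26634), and replicate 1 had none within 100 bp. A second pooled summit 870 bp upstream (signal 42.1, rank 12529), in a coding exon of T23G7.2, was matched in replicates 1 (rank 8943) and 4 (rank 14765) but not in replicate 3. No single place at dpl-1 was thus found in every replicate.

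The sequences under the highest efl-1 and dpl-1 summits are shown because these genes encode the E2F and DP factors, whose own target motif can be looked for there. Both run from 50 bp before to 50 bp after the pooled summit and were read from the RefSeq WBcel235 genome on the strand of the gene, with letters of the searched motifs in capitals. That of efl-1 is chrV:16965823-16965923 on the minus strand, and that of dpl-1 is chrII:9169826-9169926 on the plus strand.
efl-1: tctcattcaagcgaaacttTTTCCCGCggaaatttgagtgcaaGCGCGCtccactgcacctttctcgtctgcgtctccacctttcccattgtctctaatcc
dpl-1: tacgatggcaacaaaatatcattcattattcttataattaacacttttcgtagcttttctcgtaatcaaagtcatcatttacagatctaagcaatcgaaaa

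Motifs of 3 kinds were searched on both strands. They were the E2F-like spellings TTTCCCGC, TTTGGCGC, TTTCGCGC and TTTGCCGC, the CHR-like TTTGAA, and GCGCGC, which can overlap the third E2F-like spelling. The efl-1 window holds TTTCCCGC and GCGCGC, 50.5% of its bases are G or C, and the dpl-1 window holds none of the motifs and is 28.7% G or C. Over 29980 pooled nuclear summits, 3.01% of such windows hold an E2F-like word, 1.87% GCGCGC and 26.4% the CHR-like word, and the median GC content is 37.6%. Over 570 optimal nuclear summits, with a median GC content of 50.5%, these shares are 2.81%, 10.4% and 15.3%. Over all 32 pooled summits of the 9 genes, 2 windows hold an E2F-like word, that of efl-1 and that of the cyd-1 summit at 2330 bp upstream. The lin-35 summit window (41.6% G or C) holds none of the motifs. In stretches from 250 bases before to 50 after the first 5′ end, those of efl-1, cyd-1 and cdk-2 hold an E2F-like word, against 4.69% of all coding genes. Those of efl-1 and lin-35 hold GCGCGC (3.58% of all). The CHR-like word is in 8 of the 9, and in 62.5% of all. The median GC content of these stretches is 40% over the 9 genes and 34.3% over all coding genes. A matching word is a description of the sequence and no sign that a factor binds.

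CYD-1 is the worm D-type cyclin and CDK-4 its kinase partner. The cyd-1 gene (WBGene00000870) is the longest of the 9, on chromosome II from 12980591 to 12993117, and its window of 15527 bp held 12 pooled summits, the most of any member. None had a summit within 100 bp in all 3 replicates, 3 had one in 2 replicates, 8 in 1 and 1 in none. The highest lay in an intron 3535 bp from the first 5′ end (chromosome II, 12983898 to 12984353, signal 58.1, rank 4708). It was matched in replicate 3 (signal 24.6, rank 2766) and replicate 4 (signal 22.3, rank 18910), whose summits lay 102 bp from each other. The nearest summit of replicate 1 was 1785 bp away. The next, 2013 bp upstream (signal 56, rank 5325), was matched in replicate 1 (rank 11294) and replicate 3 (rank 2873) but not in replicate 4. The highest peak of each replicate stood at another place in each case. It was 1548 bp downstream in replicate 1 (rank 2415), 1017 bp upstream in replicate 3 (rank 1371) and 9027 bp downstream in replicate 4 (rank 3185). Within 1000 bp upstream of the first 5′ end only replicate 3 had a summit, at 805 bp (rank 9403). The gene has 2 annotated 5′ ends. Replicate 1 had a summit 206 bp upstream of the second (rank 20473), without a match in another replicate. Of the 10 peaks of replicate 4 in the window, none had a summit of another replicate within 100 bp.

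The cdk-4 gene (WBGene00000406) lies on chromosome X from 13515856 to 13518911 on the minus strand. Its highest pooled peak (chromosome X, 13519564 to 13520019, signal 58, rank 4727) had its summit 881 bp upstream, in a coding exon of the divergent gene F18H3.1 and 129 bp from the 5′ end of that gene. It was matched in replicate 4 alone (signal 36.9, rank 4543). Replicate 1 had 1 summit in the window, at rank 18610, and replicate 3 had 2, at ranks 6982 and 17509. The pooled summit nearest to the cdk-4 5′ end, 75 bp upstream, ranked 26309 and had no match in any replicate.

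Cyclin E and CDK-2 drive entry into S phase. The cye-1 gene (WBGene00000871, chromosome I, 6780799 to 6784397) held the highest peak of all the windows, at positions 6781643 to 6782000 with the summit at 6781796. Its signal was 544 in the pooled list, 147 in replicate 1, 125 in replicate 3 and 283 in replicate 4. The ranks were 45, 40, 41 and 49 in the same order, close to each other in all lists. The summit lay in an intron 997 bp from the first 5′ end. It was 7 bp before the start of the tRNA gene C37A2.t1, annotated by RefSeq as tRNA-Cys, a gene of 72 bp on the same strand (6781803 to 6781874). The summits of replicates 1, 3 and 4 lay 994, 1082 and 1049 bp from the cye-1 5′ end, and that of replicate 4 lay in the tRNA gene itself. The tRNA sequence is shared by 12 of 612 nuclear tRNA genes, of which 6 had an optimal summit within 200 bp. Of all 612, 201 had one (32.8%). No 36-base word of the tRNA gene was found once only. Over the whole called interval 84.5% of such words were. The part of the tRNA gene and of its copies in this peak was not tested.

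The second optimal entry at cye-1 has the same interval as the first and a summit 1199 bp from the 5′ end, in a coding exon of cye-1. Its signal was 183 and its pooled rank 311. It was matched in replicate 1 at rank 5070 and in replicate 4 at rank 19376, but not in replicate 3, whose nearest summit was 117 bp away. Both entries therefore describe 1 called region. Upstream of cye-1 the peaks were low. No replicate had a summit within 1000 bp upstream, and the pooled summit at 811 bp (signal 34.9, rank 19659), 78 bp from the 5′ end of pqn-21, had no match in any replicate.

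Of the 9 genes, lin-35 alone held an optimal summit more than 200 bp from any small RNA gene, that is, any tRNA, snoRNA, snRNA or rRNA gene. That was so for 2.54% of all coding genes. Among the coding genes with an optimal summit in the window, 280 (35.5%) had it only near such genes, as cye-1 did.

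The cdk-2 gene (WBGene00019362, chromosome I, 3410013 to 3416368) held 1 pooled peak, at positions 3409294 to 3409749, with a signal of 66.3 and rank 3037. Its summit was 491 bp upstream of the first 5′ end. Replicate 3 had a summit 536 bp upstream (signal 24.6, rank 2759), a match within 100 bp. Replicate 4 had one 376 bp upstream (signal 46.2, rank 2080), 115 bp from the pooled summit, and the intervals of these replicates shared 317 bp. Replicate 1 had no summit upstream, and its only one in the window lay in an intron at 658 bp, at rank 15144. An upstream peak thus stood in replicates 3 and 4, with summits 160 bp apart, and not in replicate 1. The only place in the cdk-2 window where replicates matched within 100 bp was near the 3′ end, where summits of replicate 3 (6225 bp, rank 21794) and replicate 4 (6176 bp, rank 13171) lay 49 bp apart.

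CKI-1 is an inhibitor of cyclin-dependent kinases of the CIP/KIP family, and worms without it divide cells too often. The cki-1 gene (WBGene00000516, chromosome II, 7811240 to 7812105) had the highest pooled peak of the 7 genes without an optimal one. That peak (chromosome II, 7810706 to 7811161) had a signal of 89.9 and rank 1147, with its summit 306 bp upstream. Each replicate had a peak in the upstream region, and those of replicates 1 and 3 lay more than 100 bp from the pooled summit. The highest within 1000 bp upstream lay 112 bp upstream in replicate 1 (signal 36.8, rank 606), 437 bp upstream in replicate 3 (signal 39.9, rank 431) and 340 bp upstream in replicate 4 (signal 45.5, rank 2187). Replicate 3 had another at 638 bp (signal 37.8, rank 487). These best summits span 325 bp, so that the pooled summit was matched within 100 bp by replicate 4 alone, although the 3 intervals shared 122 bp. Replicates 3 and 4 matched each other there, with summits 97 bp apart. The second-highest peak of replicate 1 in the window, near the 3′ end of the gene and 834 bp from the 5′ end (signal 33.7, rank 788), had no match. No other coding window held the cki-1 upstream peak.

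The stretch of the cki-1 upstream region that holds the summits of the pooled list and of replicates 1 and 4 is shown, since it lets their positions be compared. The highest summits of replicate 3, 437 and 638 bp upstream, lie outside it. The stretch is chrII:7810835-7811134 on the plus strand, 300 bases from the RefSeq WBcel235 genome. Counted from 1 at its 5′ end, the summit of replicate 4 is at base 66, that of the pooled list at base 100 and that of replicate 1 at base 294. Capitals mark the single motif match, the CHR-like word on the other strand. The GC content of the stretch is 53.3%.
cki-1: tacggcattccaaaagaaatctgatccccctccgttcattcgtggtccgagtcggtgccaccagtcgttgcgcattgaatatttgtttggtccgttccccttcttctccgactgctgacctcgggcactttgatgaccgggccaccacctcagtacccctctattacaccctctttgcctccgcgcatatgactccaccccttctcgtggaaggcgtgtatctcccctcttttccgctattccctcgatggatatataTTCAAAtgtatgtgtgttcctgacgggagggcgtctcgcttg

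The mitotic kinase gene cdk-1 (WBGene00000405, chromosome III, 9747472 to 9748852) had the lowest-ranking best peak of the 9 in the pooled list, though not in replicate 1. Its 1 pooled peak (chromosome III, 9746727 to 9747182, signal 38.5, rank 15731) had its summit 517 bp upstream, in an intron of the divergent gene iff-1, which encodes a translation factor of the eIF5A family, and 238 bp from the iff-1 5′ end. It was matched in replicate 1 (signal 26.1, rank 2114). The single summit of replicate 3 lay 2470 bp upstream (rank 26333), and that of replicate 4 lay in an intron 225 bp from the 5′ end (rank 15591). No summit of one replicate at cdk-1 was near that of another.

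**Figure D2:**
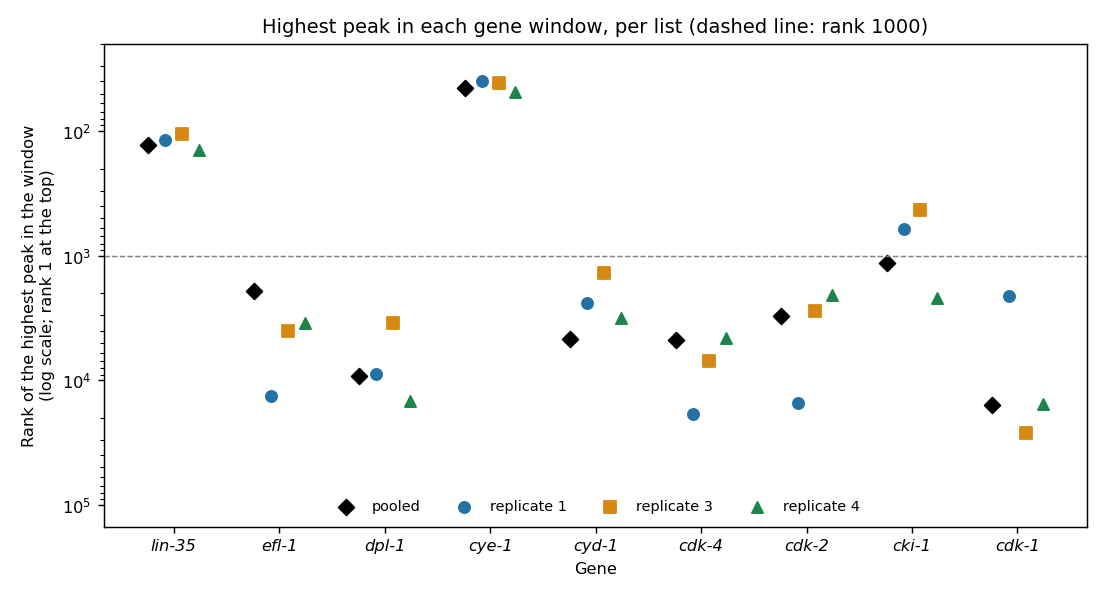
For each gene the rank of the highest peak in its window is given on a log scale with rank 1 at the top, in the pooled list and in each replicate's own list. The points of cye-1 (40 to 49) and lin-35 (105 to 142) lie close together, whereas those of cdk-1 run from 2114 to 26333 and those of efl-1 from 1905 to 13483.

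Recurrence of the pooled summits in the replicates was close to that of the whole pooled list. Of the 32 pooled summits, 2 had a summit within 100 bp in all 3 replicates, those of lin-35 and cye-1, against 5.33% of all pooled peaks. A further 8 were found in 2 replicates, 17 in 1 and 5 in none, and over the whole pooled list these shares were 24.1%, 51.8% and 18.8%. Replicate 4 held a match for 19 of the 32, replicate 1 for 11 and replicate 3 for 9. The order is that of the whole list, where 51.9%, 32.1% and 31.8% were matched. Recurrence depended on rank. Among pooled peaks ranked 1 to 589, 83% were found in every replicate, as were 2 of the 3 in these windows, those of lin-35 and cye-1. These 3 are the optimal peaks of the windows, with the same ranks in both lists. The optimal list was derived with the lists of replicates 3 and 4. Optimal status, pooled rank and recurrence are therefore not separate evidence for them. Among pooled peaks ranked 590 to 2000, 35.5% were found in every replicate, but neither of the 2 in these windows, those of cki-1 and efl-1, was. Of those ranked 2001 to 10000, 7.01% were, and 0 of the 9 in these windows. The pooled list is called from the reads of all replicates, so a match is not independent of it.

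Between the replicates' own lists, the shares of matched peaks lay on both sides of those of the whole lists. Of the 35 peaks of replicate 1 in the windows, 3 were matched in replicate 3 and 5 in replicate 4, or 8.57% and 14.3%, against 14.8% and 18.2% of its whole list. Of the 32 peaks of replicate 3, 3 were matched in replicate 1 (9.38%, against 13.3%) and 7 in replicate 4 (21.9%, against 16.6%). Of the 37 peaks of replicate 4, 5 were matched in replicate 1 (13.5%, against 16%) and 7 in replicate 3 (18.9%, against 16.3%). Both lin-35 and cye-1 held a place where peaks among the 1000 highest of every replicate lay within 100 bp of each other, as did 2.19% of coding genes.

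The upstream 1000 bp were also compared without asking for the same place, a measure chosen after the values were seen. At lin-35, efl-1, dpl-1 and cki-1, 4 of the 9 genes, every replicate had a peak there, against 8.65% of all coding genes. At dpl-1 the highest such summits were up to 789 bp apart and shared no bases. With peaks limited to the 5000 highest of each replicate, lin-35 and cki-1 met the condition, against 2.27% of coding genes.

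**Figure D3:**
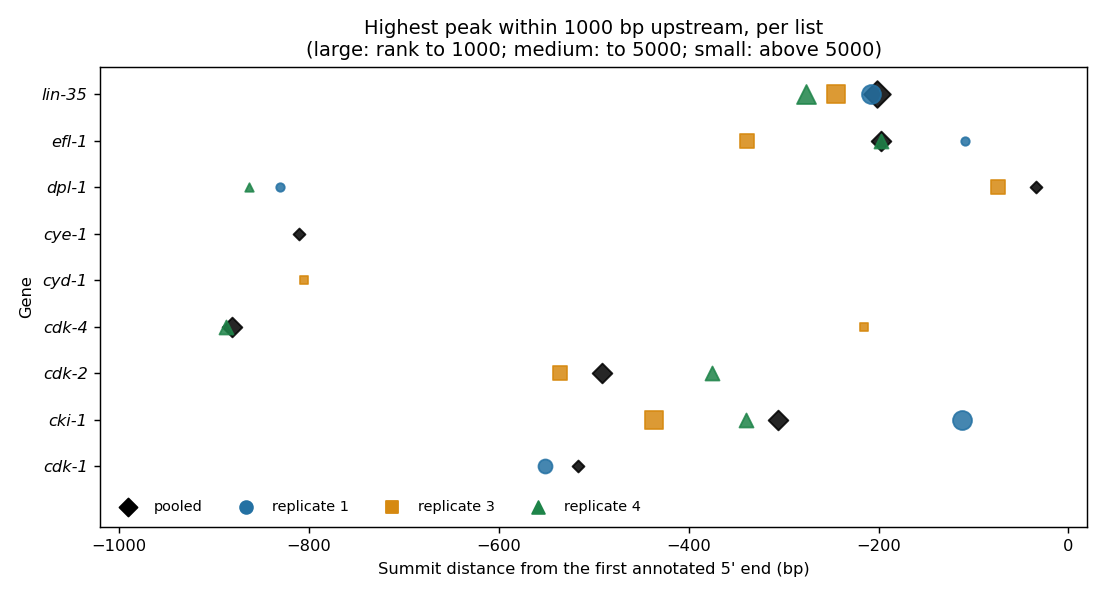
The x axis gives the distance in bp of the highest summit within 1000 bp upstream of the first 5′ end, and the y axis the gene. Each marker shape and colour is 1 list, and marker size gives its rank class. The lin-35 summits span 69 bp between replicates, those of efl-1 span 230 bp and those of cki-1 span 325 bp.

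The windows of the 9 genes were somewhat longer than usual and held more peaks per kb. The median window was 6599 bp against 5027 bp over all coding genes, and the median number of pooled summits was 3 against 1. Pooled summits stood at 0.442 per kb in the 9 windows and at 0.292 per kb in all coding windows, a ratio of 1.51. The ratio was 1.82 in replicate 1, 1.51 in replicate 3 and 1.73 in replicate 4. The pooled density differed between members, from 0.0915 per kb at lin-35 to 0.773 per kb at cyd-1, which alone gave 12 of the 32 summits. At lin-35, cdk-2 (0.107 per kb) and cdk-1 (0.228 per kb) it was below that of all coding windows, and at the remaining members above it. In replicate 1 the order was another, with 10 peaks in the lin-35 window and 12 in that of cyd-1. By position, 18 summits lay upstream, 13 in introns and 1 in a coding exon of the member.

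The median rank of the highest pooled peak was 3037 over the 9 genes and 18492 over all coding genes, with genes that had no peak placed last. Over the 16424 coding genes with windows from 3866 to 15527 bp, the range of the 9, that median was 18010 and 3.94% held an optimal summit. These figures describe 9 genes picked for their function, with earlier results of these data known, and were not tested.

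**Figure D4:**
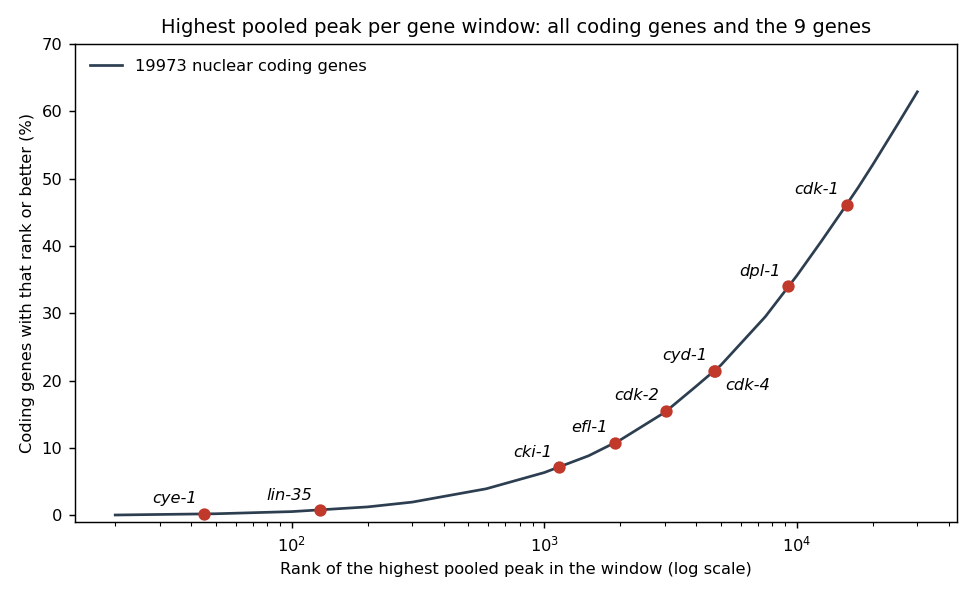
The line gives the percent of the 19973 nuclear coding genes whose highest pooled peak has at least the rank on the log-scaled x axis, and the points mark the 9 genes. A better-ranked peak was held by 0.185% of coding genes for cye-1, 0.741% for lin-35, 7.11% for cki-1, 10.8% for efl-1 and 46.1% for cdk-1.

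Most genes of a further list related to the cell cycle held a pooled peak, and among them an optimal peak was found at cyh-1 alone. This drawn-up list had 62 genes, of which 61 were found under these names. Of these, 51 held a pooled peak, against 62.9% of coding genes, and 1 an optimal one, against 3.95%. A place among the 1000 highest of all replicates was held by 0, against 2.19%. The numbers with an optimal summit were 1 of 17 cyclins, kinases, phosphatases and inhibitors, 0 of 12 genes of the DREAM and synMuv B group, 0 of 10 ubiquitin ligase genes and 0 of 22 replication genes. The median rank of the highest pooled peak was 3434, 3984, 11530 and 5235 in these groups, and 5903 over all 61, against 18492 over all coding genes. These comparisons take no account of the window lengths of the 61 genes. The optimal peak was in the window of cyh-1, which encodes cyclin H, a partner of the CDK-activating kinase. It lay on chromosome II from 3502639 to 3503094 (signal 131, pooled rank 533), 2150 bp upstream of cyh-1 and closer to the 5′ end of another gene, Y49F6B.2. It was matched in replicate 1 (rank 1372) and replicate 4 (rank 360) but not in replicate 3.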

How the data were processed

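The 5 peak lists are those the authors deposited, on the ce11 assembly per the deposited file listing. Per the deposited file listing, the replicate lists and the pooled list were called against the same control alignment, and the optimal list was derived by the irreproducible discovery rate from the pooled list and those of replicates 3 and 4. Neither aligner nor caller is named in the labels or in that listing. The deposited signal of a peak was used for ranks within a list. The deposited −log10 q-value is tied in many peaks and was not used. Starts, ends and summit offsets are as deposited, given here counted from 1.

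Gene models were those of Ensembl release 115 (WBcel235, the ce11 assembly), and 0 peaks ran past a chromosome end. A summit within 100 bp counted as the same place. Ties took the lowest rank. Counting was done in Python 3.11.15 with pandas 2.3.3 and checked on simulated data. No hypothesis test was made, since there is 1 group and the members, lists and motifs were chosen with earlier results of these data known. The genes named are the 9 members, the neighbours at their peaks, and related genes with an optimal peak or one among the 1000 highest of every replicate. No sequence is shown for lin-35, cye-1 and cdk-2. Read depth was not analysed here, so precision rests on the 3 replicates. Alternatives varied the upstream length, the matching distance, the list depth, the treatment of repeated intervals and the replicates required.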

Additional observations from a re-analysis of the deposited data

How the results depend on the processing

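Of 49 alternative values computed, 37 stayed within 1.5 times the reported count or within 1 SD of the density ratio over replicates (0.16). Several of the 37 could not have left that range, as described below. The SD also comes from the same replicate ratios that it was used to judge. The number 37 is therefore no measure of robustness. With 1000 or 5000 bp upstream, with the upstream part ended at the nearest coding gene, with repeated intervals counted once, and in the 294 upper optimal peaks, 2 members kept an optimal summit. None of these changes could lower this number. The optimal summit of lin-35 lies 202 bp upstream of its 5′ end, in the 418 bp stretch to the 5′ end of vps-51. The highest of cye-1 lies inside the gene. Their ranks in the optimal list, 129 and 45, are both within the upper 294. Leaving out optimal summits within 200 bp of small RNA genes, a setting chosen after seeing the data, left 1 member and 1 optimal peak. The matching distance decided recurrence. Within 50 bp, 0 pooled summits were found in all replicates. At lin-35 the summit of replicate 4 lay 75 bp from the pooled one. At cye-1 those of replicates 3 and 4 lay 85 and 52 bp away. With the same distance, 0 members held a place among the 1000 highest of each replicate. There the replicate summits were compared with each other. They spanned 69 bp at lin-35, and at cye-1 those of replicates 1 and 3 lay 88 bp apart. Within 200 bp 5 pooled summits were found, and 10 by intervals that overlap by at least 100 bp, also chosen after seeing the data. With 1 replicate left out, the count ranged from 3 to 6: it was 5 without replicate 1, 6 without replicate 3 and 3 without replicate 4, where fewer lists had to match. The number of members with a place among the 1000 highest was 2 without any 1 replicate. It could not fall there, since fewer lists had to match. The 5000 highest pooled peaks left 8 summits in the windows and a density ratio of 2.17, and the ratio was 1.82 and 1.73 in the own lists of replicates 1 and 4. No paired analysis was possible because the series has 1 group. With 3 replicates and no read depth, a peak missing from a list is not shown to be absent.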
